A study of Mus musculus with 3 samples.

Results

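Head-to-head gene pairs are neighbours on opposite strands whose 5′ ends run across each other, so that a stretch of DNA lies in exons of both. They were collected from the exon coordinates of the count tables: both genes had to be annotated as protein-coding, to share at least 1 exon base, and the minus-strand gene had to have the lower start and the lower end. This gave 454 pairs with 903 genes, of 4597 opposite-strand pairs that shared exon bases and 21764 protein-coding genes in all. Among the remaining protein-coding pairs, 783 met tail-to-tail (3′ ends across each other) and 151 were nested. In 260 head-to-head pairs neither gene shared exon bases with a further opposite-strand gene, and these are called simple pairs here.

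The counts came from 3 RNA-seq libraries of T-helper 1 (Th1) cells, primary CD4 T cells of C57BL/6NJ mice that had been differentiated in culture. Th1 cells are the T helper lineage known for interferon gamma and the transcription factor T-bet. The labels gave 1 group with biological replicates 1, 2 and 3 under a single donor entry, no treatment, and no known age or sex. A mark of 24 hr stood in the file headers without a statement of what it timed. Whether the replicates came from separate animals or cultures was not stated. The p-values between them therefore ask only whether these libraries differ by more than counting error, and such a difference may be technical.

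Total counts were 3553547, 2945353 and 3369468 read pairs in replicates 1, 2 and 3, so that 3 counts, the limit a count of 0 allows, corresponded to 0.844, 1.02 and 0.890 CPM (counts scaled to library size). All 10 T cell markers reached 10 counts in every library, with 3431 to 5105 counts summed, while only 2 of 5 Th1 markers did, with 142 to 161 counts summed. Large parts of these sums lay at Cd247 (1867, 1774 and 1786) and at Il12rb2 (90, 105 and 114). Both genes share exon bases with an opposite-strand gene, as does Cd3e. Ifng, the interferon gamma gene, had 2, 2 and 1 counts. The NK cell and erythroid markers were at 0, and the B cell markers summed to 19 to 22 counts. Of the CD8 T cell markers, Cd8a had 1, 1 and 1 counts and Cd8b1 had 30, 20 and 36. Of the macrophage markers, Csf1r, which shares exon bases with an opposite-strand gene, had 1429, 1418 and 1460 counts, whereas Lyz2 was at 0, Adgre1 had 0, 1 and 1 counts and Cd68 had 22, 6 and 7. Replicate 2 stood apart: the chi-square per gene, about 1 under counting error alone, was 15.1 and 8.50 between it and replicates 1 and 3, against 4.17 between those 2 replicates.

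In mammals, promoters that fire in both directions are common, and many lie in CpG islands, stretches rich in the CG dinucleotide. Such a promoter can start a pair of divergent mRNAs whose first exons lie apart, abut or overlap. Where they overlap, a read from the shared bases belongs to one gene or the other only by its strand. The deposited counts assigned read pairs to genes with strand option 1 of the counting program, and the sources used here do not say whether that setting matched the libraries. On the mitochondrial genome, mt-Nd6, the lone mRNA of its strand, held 38715, 48536 and 51162 counts per kb in the 3 libraries, against 2564, 2087 and 2805 for the highest of the other 12 mRNAs. What follows therefore describes counts recorded at each gene, and how far the strand setting placed them was not tested.

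The overlaps were short and rich in CpG. A few are shown because they carry the main contrasts, read on the plus strand of mm10 (GRCm38). In the first 3, capitals mark the shared exon bases, 5 bases in Cutc/Cox15 and the entire overlap in Fam57b/Aldoa and Med19/Tmx2. In the next 4, capitals mark each CpG in the middle 30 bases of the longest shared segment. The pairs are named with the plus-strand gene first. They lie at chr19:43752984-43753013, chr7:126797668-126797692, chr2:84678643-84678661, chr11:116843349-116843378, chr14:18271256-18271285, chr2:85037294-85037323 and chr1:58016790-58016819, in the order printed.
Cutc/Cox15: gcacttccgggtCAGGCgtcgtgcgcgccc
Fam57b/Aldoa: TGCCCTTGCCCGGAGCCACAATGCG
Med19/Tmx2: CTGATGCGGGAATTGCCAG
Mettl23/Jmjd6: agcCGccacCGgagctttgggttgggCGaa
Nkiras1/Rpl15: ggctccagagggaCGccttCGgacCGCGgt
Ssrp1/P2rx3: ctcactgtgcCGtCGCGaggctgcagctct
Sgo2a/Kctd18: aaggtgttcattgctcagaaaaggataagt
The Cutc sequence is from the RefSeq promoter table (GRCm38.p6) and the others are from GENCODE M21 transcripts. The last one holds no CpG, and its overlap of 2455 bases lies in the coding sequence of Sgo2a.

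Head-to-head pairs shared a median of 169 exon bases (quartiles 96.25 and 277.75), from 2 bases in Pus10/Pex13 to 2455 in Sgo2a/Kctd18. Only 25 pairs shared fewer than 30 bases and only 7 more than 1000. The shared stretch was a median of 4.64% of the plus gene's exon bases and 4.48% of the minus gene's, and lay in 1 unbroken segment in 370 pairs. Tail-to-tail pairs shared a median of 302 bases (quartiles 96 and 797.5). Over all head-to-head overlaps, 60.1% of the annotations by base and gene were 5′ UTR, 24.0% coding sequence, 11.8% noncoding exon and 3.94% 3′ UTR, whereas 73.6% of those in tail-to-tail overlaps were 3′ UTR.

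Base composition separated the orientations. The longest shared segment of head-to-head pairs had a median GC content of 63.4% (quartiles 57.2 and 69.1; 452 pairs with sequence) and 8.03 CpG per 100 bases, 0.814 of the number its base content would give. In tail-to-tail pairs the medians were 43.8% GC (quartiles 34.1 and 52.1; 781 pairs), 1.08 CpG per 100 bases and 0.229 of that number. Mfsd11/Srsf2 (74.0% GC) and Mettl23/Jmjd6 (70.3%) were at the GC-rich end, and Sgo2a/Kctd18 (39.8%) at the other.

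**Figure D1:**
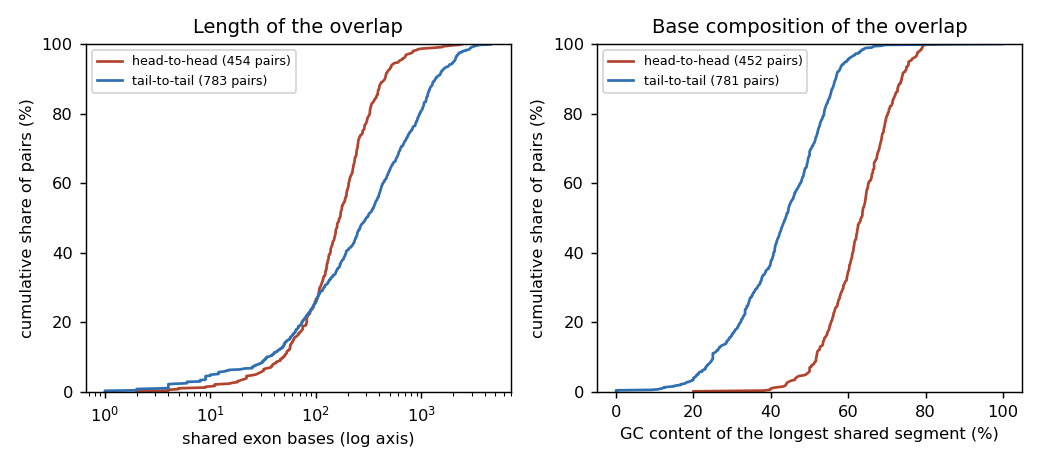
Cumulative share of pairs (%) against the number of shared exon bases (left, log axis) and the GC content of the longest shared segment (right, %), for head-to-head (red) and tail-to-tail (blue) protein-coding pairs. The curves cross near 100 shared bases, with medians of 169 and 302 bases, and stand apart in GC content, with medians of 63.4% and 43.8%.

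Promoter windows of 300 bases (250 before a RefSeq start, GRCm38.p6) were found for 716 of the 903 genes, 977 windows in all. Their median GC content was 60.67% with 20 CpG, against 60.33% and 19 CpG for 1397 windows of genes in tail-to-tail pairs only, and 57% and 14 CpG for 20095 windows of all protein-coding genes. The letters CCGGAAG, a core that ETS family factors such as GABPA can bind, stood on either strand in 23.64% of head-to-head windows, 18.47% of tail-to-tail windows and 11.9% of all. TATAAA, the TATA box core, stood in 6.755%, 6.943% and 12.09%. The windows of both genes of a pair can overlap, so that 1 match can be counted for both.

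Other promoter letters are given in the same order of head-to-head, tail-to-tail and all windows. GGGCGG, the GC box of SP1, stood in 58.14%, 60.13% and 47.83%. CCAAT, the box of NFY, stood in 37.56%, 36.79% and 37.79%. AAGATGGCG, a YY1 motif, was in 3.173%, 2.792% and 1.926%, and CTCGCGAG, a ZBTB33 motif, in 2.559%, 1.575% and 1.274%. GCGCATGC, which NRF1 can bind, was in 3.071%, 5.011% and 3.658%, and TGACGTCA, the cyclic AMP response element, in 3.071%, 2.505% and 2.319%. Both strands were searched for each, and a match is a description of the letters, not a bound site. The next sequences show CCGGAAG or its reverse complement in capitals on the gene's own strand, beside pairs described below. They lie at chr17:12916314-12916343 (plus strand), chr1:55088060-55088089 (plus), chr14:18271125-18271154 (minus) and chr19:43752976-43753005 (plus), in the order printed.
Tcp1: gcagccccctaCTTCCGGcgttttcagttt
Hspe1: tctagaaccttCCGGAAGgccccgcgcgtc
Rpl15: tgggagagcatCCGGAAGcggcgggctgtc
Cutc: aagaacaagcaCTTCCGGgtcaggcgtcgt
In Cutc/Cox15 the match lies beside the 5 shared bases.

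Both genes of 322 pairs had 10 or more counts in every library, 1 gene did in 68 pairs and neither in 64. Of the 903 genes, 707 (78.3%) reached that level and 75 had no count in any library. Their median level was 14.5, 11.2 and 13.1 TPM (counts per exon length, scaled to the same total in each library) in replicates 1, 2 and 3, or 12.9 ± 1.66 (SD, n = 3). Genes of tail-to-tail pairs stood at 17.0 ± 1.51 TPM with 83.1% at 10 counts, and 16963 protein-coding genes without opposite-strand exon overlap at a median of 0 TPM with 32.6%. How far the strand setting described above bears on these levels was not tested. Per kb of exon, head-to-head genes were lower than tail-to-tail genes by a median log2 difference of -0.34, -0.45 and -0.37 in the 3 libraries (-0.39 ± 0.06, SD). An exact sign-flip test over 3 libraries cannot go below p = 0.25.

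Head-to-head genes held 9.68%, 10.3% and 9.91% of all counts (9.98% ± 0.339, SD, n = 3). The 10 highest of them held 24.6% ± 1.62 of that. Genes with a single opposite-strand partner (688) had a median of 11 TPM and those with more than 1 (215) a median of 25.1 TPM.

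Counts were split unevenly within pairs, as in other opposite-strand pairs. For 397 pairs with at least 10 counts summed in every library, the gene with the higher mean CPM is called the higher gene and its partner the lower gene. The median log2 ratio of their counts was 2.11, 2.47 and 2.26 in replicates 1, 2 and 3 (2.28 ± 0.18, SD, n = 3), with a sign fixed by that choice. It was under 1 in 86 pairs, over 3 in 144 and over 5 in 46. Per kb of exon the median was 2.36, and the higher gene was the longer one in 209 of the 397 pairs. Neither strand was favoured: the plus gene was higher in 200 pairs and the minus gene in 197, and the median log2 ratio of plus to minus gene was 0.06 ± 0.08. The same gene was higher in every library in 367 pairs, and the lower gene stayed at or under 3 counts in every library in 21. In pairs with enough counts for the split test below, the lower gene's median share was 21.7%, 17.5% and 19.0% in replicates 1, 2 and 3. It was 20.7%, 17.9% and 20.5% in tail-to-tail pairs and 18.6%, 14.0% and 17.2% in all opposite-strand pairs.

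**Figure D2:**
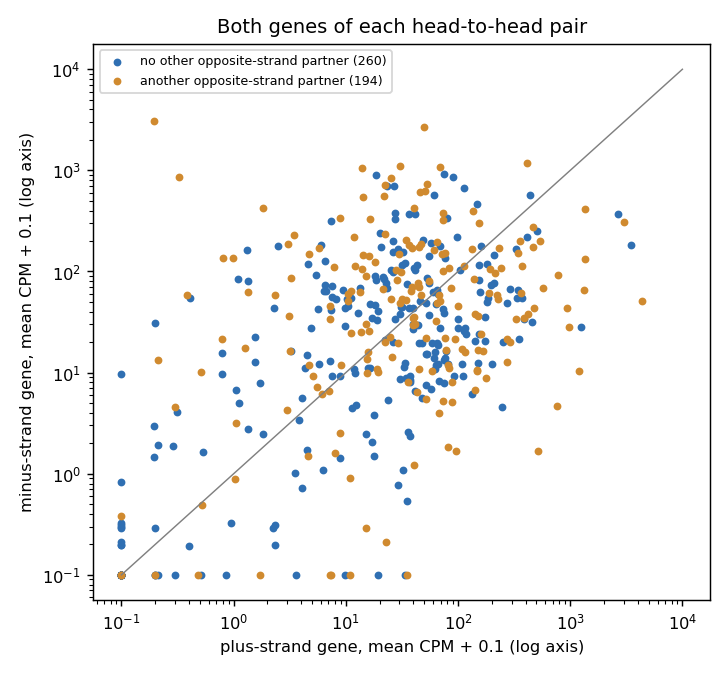
Mean CPM over 3 libraries, plus 0.1, of the plus-strand gene (x) and the minus-strand gene (y) of each head-to-head pair, both on log axes, with the line of equal counts. Simple pairs are blue (260) and pairs with a further opposite-strand partner orange (194). Points lie on both sides of the line: among pairs with at least 10 summed counts in every library, the plus gene was higher in 200 and the minus gene in 197.

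The number of shared bases went only weakly with the counts. Across the 397 pairs, which share libraries and overlap in genes, Spearman's rank correlation between shared bases and the higher gene's mean count was 0.193, and 0.205 in 212 simple pairs. The higher and the lower gene's counts had a rank correlation of 0.628, and 0.703 in simple pairs. These roles were chosen from the same counts, which by itself makes the correlation positive, so it does not measure joint expression. Pairs sharing 1 to 50 bases had median levels of 23.9 TPM at the higher and 3.91 TPM at the lower gene (40 pairs). Those sharing over 400 bases had 82.3 and 13.1 TPM (47 pairs). Over all pairs, the median log2 count ratio had no steady order over these 5 bins (2.84, 2.15, 2.54, 1.96 and 2.35).

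Further partners lay more often on the side of the higher gene. In 160 of the 397 pairs exactly 1 gene had a further opposite-strand partner, and it was the higher gene in 113 and the lower gene in 47. Among the 10 pairs with the most counts, 2 were simple, and in 7 the higher gene had such a partner. Where further partners lay in other opposite-strand pairs was not counted, so whether this is particular to head-to-head pairs was not tested.

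Mettl23/Jmjd6 on chromosome 11 had the most counts. Mettl23, a methyltransferase-like gene, stood at 14475, 14364 and 13676 counts (2861 TPM ± 169), and Jmjd6, an oxygenase of the JmjC family, at 224, 135 and 151 (19.6 TPM ± 4.79). Mettl23 was 83.4-fold higher in counts than Jmjd6, across a shared 5′ UTR stretch of 172 bases (chr11:116843278-116843449). The exons of Mettl23 also share 460 bases with Srsf2, which belongs to the third pair below and had 1299, 718 and 1042 counts.

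Pde6h/Arhgdib, a simple pair on chromosome 6, was next. Pde6h encodes a subunit of the phosphodiesterase of cone photoreceptors, and Arhgdib a regulator of small GTPases that is abundant in blood cells. Pde6h stood at 10943, 11473 and 11954 counts (795 TPM ± 54.2). Arhgdib had 704, 418 and 715 counts (194 TPM ± 46.6). The photoreceptor gene was the higher one in every library, 18.7-fold in counts, and the pair shared 136 bases in 2 segments (chr6:136923832-136924216).

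Mfsd11/Srsf2 shared 288 bases (chr11:116852568-116852855) that are 5′ UTR of Mfsd11, a transporter-like gene, and coding sequence of Srsf2, an SR splicing factor. Mfsd11 had 10141, 9516 and 9900 counts (757 TPM ± 10.6), and Srsf2 had 1299, 718 and 1042 (186 TPM ± 46.1). The transporter-like gene was 9.66-fold higher in counts.

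Prtn3/Plppr3 was the most uneven of the pairs with a mean summed count of 100 or more, and shared 159 bases (chr10:79874476-79874634). Plppr3, a gene related to lipid phosphatases, stood at 10904, 9984 and 9507 counts (1265 TPM ± 84.4), and Prtn3, the neutrophil proteinase 3 gene, at 1, 0 and 0, within the limit of a count of 0. At its other end Plppr3 shares 251 bases tail-to-tail with Ptbp1, an RNA-binding splicing repressor with 1125, 538 and 875 counts.

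Fam57b/Aldoa, simple and with only the 25 shared bases printed above, carried 9064, 8533 and 8715 counts at Fam57b (1212 TPM ± 27.6), a membrane protein gene. Aldoa, the glycolytic aldolase, had 1569, 756 and 1388 counts (177 TPM ± 55.1). Fam57b was 7.09-fold higher in counts, and the 25 bases are 5′ UTR of Fam57b and coding sequence of Aldoa.

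Smg6/Srr (chr11:74925823-74925948), in which Srr makes D-serine and Smg6 is an endonuclease of nonsense-mediated decay, stood at 8618, 9127 and 8671 counts for Srr against 190, 142 and 154 for Smg6. In Slirp/Alkbh1 (chr12:87443896-87444017), the RNA-binding protein gene Slirp had 4251, 4537 and 4572 counts and the demethylase gene Alkbh1 had 1364, 1383 and 1351. In Tmem116/Erp29 (chr5:121452191-121452370), the endoplasmic reticulum gene Erp29 had 3973, 3940 and 3777 counts and Tmem116 had 1384, 1399 and 1276. The counts of Slirp/Alkbh1 and Tmem116/Erp29 were closer to each other than in the other 8 of the 10 pairs, at 3.26-fold and 2.88-fold. Per length, Erp29 (234 TPM ± 13.2) and Tmem116 (197 TPM ± 15.9) stood nearer still.

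Nkiras1/Rpl15 (chr14:18271219-18271323) paired an inhibitor of NF-kappaB signalling with a ribosomal protein gene of the large subunit. Nkiras1 had 4219, 4663 and 4432 counts (446 TPM ± 41.9) and Rpl15 had 544, 310 and 470 (99.4 TPM ± 23.2). In Tcp1/Mrpl18 (chr17:12915701-12916345), the chaperonin gene Tcp1 had 4590, 4133 and 4376 counts (472 TPM ± 7.46) and the mitochondrial ribosome gene Mrpl18 had 270, 160 and 223 (84.1 TPM ± 18.1). In both pairs the groups of 3 values did not overlap, though the higher gene was chosen from these values. The same gene was higher in every library in 367 of the 397 pairs. Tcp1 also meets Acat3 tail-to-tail over 571 bases, where Acat3 held 11711, 11452 and 11052 counts.

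**Figure D3:**
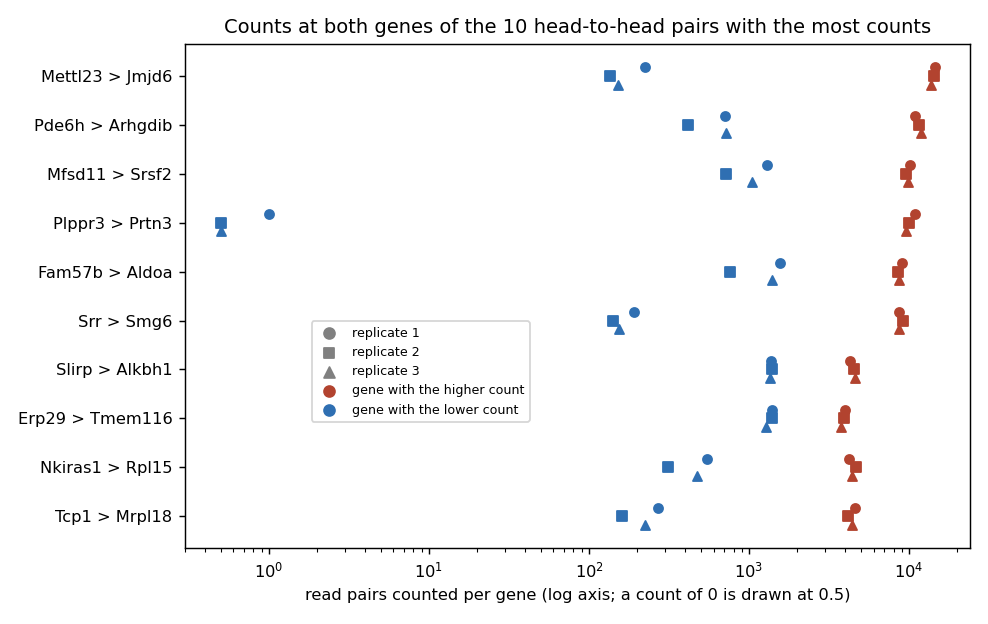
Read pairs counted (log axis, a count of 0 drawn at 0.5) at the higher gene (red) and the lower gene (blue) of the 10 head-to-head pairs with the most counts, with 1 symbol shape per replicate. The red points of a pair lie close together, for example 4219 to 4663 for Nkiras1, while many blue squares (replicate 2) lie left of the other blue symbols, as in Rpl15 with 310 against 544 and 470.

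The longest overlaps did not hold even splits. In Sgo2a/Kctd18, Kctd18, a BTB domain gene, had 2268, 2314 and 2279 counts, and Sgo2a, the shugoshin that guards centromeric cohesion, had 111, 63 and 96. Serf2/Serinc4 shared 2296 bases, with 1461, 1364 and 1359 counts at Serinc4 and 120, 105 and 171 at Serf2. E130218I03Rik/Zfp593 shared 1627 bases, with 3682, 4399 and 4034 counts at E130218I03Rik and 129, 59 and 94 at Zfp593, a zinc finger gene. Ubl5/Fbxl12 shared 1890 bases, and Ubl5, a ubiquitin-like splicing gene, was 21.3-fold higher in counts than the F-box gene Fbxl12.

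The shortest overlaps were mostly uneven too. Pus10/Pex13, with 2 shared bases, had 208, 142 and 161 counts at the pseudouridine synthase gene Pus10 and 30, 16 and 29 at the peroxisomal import gene Pex13. Dram2/Cept1, with 5, had 485, 453 and 520 counts at Cept1, a phospholipid synthesis gene, and 19, 11 and 16 at Dram2. Cutc/Cox15, also with 5, had 150, 81 and 128 counts at Cox15, which is needed for heme A, and 10, 6 and 14 at Cutc. In Fcf1/Arel1, with 4, the ribosome biogenesis gene Fcf1 (112, 70 and 76) and the ubiquitin ligase gene Arel1 (64, 31 and 48) differed by 1.80-fold in counts summed over the libraries.

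The 4 most even pairs had log2 ratios of 0.01 to 0.04. Tmc8/Tmc6, a pair of related transmembrane channel-like genes, had 52, 45 and 57 counts at Tmc8 and 60, 44 and 52 at Tmc6, overlapping ranges. Plod3/Znhit1 joined a collagen-modifying enzyme gene (323, 358 and 327) to a chromatin remodeller subunit (351, 337 and 332).

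At the other extreme, besides Prtn3/Plppr3, stood Pate2/Hyls1, Dnajc14/Tmem198b and Hypk/Serinc4. Hyls1, a centriole gene, had 2738, 2944 and 2763 counts where Pate2, of a family known from testis and epididymis, had 0, 2 and 0. Dnajc14, a co-chaperone gene, had 1663, 1745 and 1689 against 7, 2 and 7 for Tmem198b. Hypk had 8, 6 and 3 counts beside the Serinc4 counts given above.

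The design holds 1 group, so the test it allows is whether the split of a pair differed between libraries. A chi-square test of the 2 genes by 3 libraries was run for every opposite-strand pair with an expected count of 5 or more in all cells, with Benjamini-Hochberg adjustment over all of them. Library size cancels in this ratio, and read pairs are taken as independent. Of 344 head-to-head pairs tested, 149 (43.3%) differed at an adjusted p under 0.05, against 50.1% of all 2395 opposite-strand pairs tested, so the share in head-to-head pairs was no higher than the background. For simple pairs it was 87 of 182 (47.8%) and for tail-to-tail pairs 332 of 656 (50.6%). The other 110 head-to-head pairs had an expected count under 5 in at least 1 cell. Prtn3/Plppr3 and Pate2/Hyls1 were among them, although their higher genes had many counts.

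Replicate 2 carried most of the difference. In 119 of the 149 pairs the lower gene's share of the pair's counts was lowest in replicate 2, and in 15 each in replicates 1 and 3. Over all opposite-strand pairs, 41.4% of those tested differed in this direction, against 119 of 344 here. Over all 344 pairs tested, the median share of the lower gene was 21.7%, 17.5% and 19.0% in replicates 1, 2 and 3. Over the 149 pairs, which were selected for differing, it was 21.9%, 15.3% and 18.9%. Without replicate 2 the number that differed fell to 39 of 352 (11.1%; 9.14% of all opposite-strand pairs), without replicate 1 to 87 of 346 (25.1%; 33.5% of all), and without replicate 3 it was 141 of 344 (41.0%; 52.3% of all). When the lower gene was chosen in replicate 1 alone, its share was less in replicate 2 than in replicate 3 in 233 of 344 pairs (67.7%), against 72.2% of all opposite-strand pairs tested. This choice of library was added after the data were seen.

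Set against the mean of replicates 1 and 3, replicate 2 had relatively more counts at the higher genes. Relative to the median of all 10216 genes tested, the median log2 difference of the higher genes was 0.45, 0.44 and 0.44 under total counts, TMM and DESeq2 size factors. That of the lower genes was 0.03 under each of the 3 scalings. In simple pairs the lower genes stood at -0.06 and the higher genes at 0.40 under each scaling. The median of all genes itself moved from -0.37 under total counts to -0.03 and -0.01 under TMM and DESeq2 size factors. For tail-to-tail pairs the same values were 0.57 at the higher and 0.21 at the lower genes, and protein-coding genes without opposite-strand exon overlap stood at -0.16 to -0.17. That replicate 2 also had the lowest total count is a measured fact whose part in this was not tested.

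Gene by gene, 326 of 706 head-to-head genes tested (46.2%) differed between libraries by a chi-square test against counting error at TMM-scaled sizes, against 35.6% of all 10216 genes tested. The share was 56.2% (728 of 1296) for genes of tail-to-tail pairs and 21.8% (1216 of 5576) for protein-coding genes without opposite-strand exon overlap. These shares were not tested against each other. Leaving out replicate 2 brought the 326 down to 108 of 718 (15.0%), against 9.04% of all 10739 genes tested in that setting.

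The 6 pairs with the lowest adjusted p gave the pattern in single genes. Ssrp1/P2rx3 on chromosome 2, a simple pair, shares 51 bases of 5′ UTR. Ssrp1 is a subunit of the histone chaperone FACT and P2rx3 an ATP-gated channel known from sensory neurons. P2rx3 stood at 1716, 1966 and 1906 counts and Ssrp1 at 1807, 969 and 1633. The share of Ssrp1 was 51.3%, 33.0% and 46.1%, so Ssrp1 was the higher gene in replicate 1 alone (adjusted p = 1.41e-47, chi-square test with Benjamini-Hochberg adjustment).

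For Fam57b/Aldoa, the Aldoa share was 14.8%, 8.14% and 13.7%, with counts of Fam57b nearly level while those of Aldoa in replicate 2 were the lowest (adjusted p = 1.14e-47, same chi-square test). For Mgme1/Snx5, a mitochondrial nuclease gene and a sorting nexin gene, Snx5 had 740, 324 and 596 counts and Mgme1 had 897, 1092 and 1234. The Snx5 share of 45.2%, 22.9% and 32.6% was lowest in replicate 2 (adjusted p = 8.10e-36). These 2 simple pairs shared 25 and 206 bases.

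Arf6/Gm9887 joined a small GTPase gene to a predicted gene, with 433, 218 and 330 counts at Arf6 and 541, 813 and 796 at Gm9887 (adjusted p = 6.09e-27, chi-square test with Benjamini-Hochberg adjustment). Mfsd11/Srsf2 had an Srsf2 share of 11.4%, 7.02% and 9.52% (adjusted p = 7.53e-25). In Cog4/Sf3b3, a Golgi tethering gene opposite a subunit of the U2 snRNP, Sf3b3 had 826, 336 and 607 counts and Cog4 had 1688, 1408 and 1508 (adjusted p = 7.22e-20). In each of these 6 pairs the lower gene's share was lowest in replicate 2.

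Several well-counted pairs passed no such threshold. Hspe1/Hspd1 encodes both parts of the mitochondrial chaperonin, HSP10 and HSP60, from 1 shared 5′ end of 112 bases. Hspd1 had 2816, 1517 and 2425 counts and Hspe1 had 480, 228 and 416, so both were lowest in replicate 2. The Hspe1 share was 14.6%, 13.1% and 14.6% (adjusted p = 0.355, chi-square test with Benjamini-Hochberg adjustment). For Slirp/Alkbh1 the Alkbh1 share was 24.3%, 23.4% and 22.8% (adjusted p = 0.238). For Tmem116/Erp29 the Tmem116 share was 25.8%, 26.2% and 25.3% (adjusted p = 0.610). Of the 10 pairs with the most counts, 7 differed between libraries, each with the lower gene's share lowest in replicate 2.

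**Figure D4:**
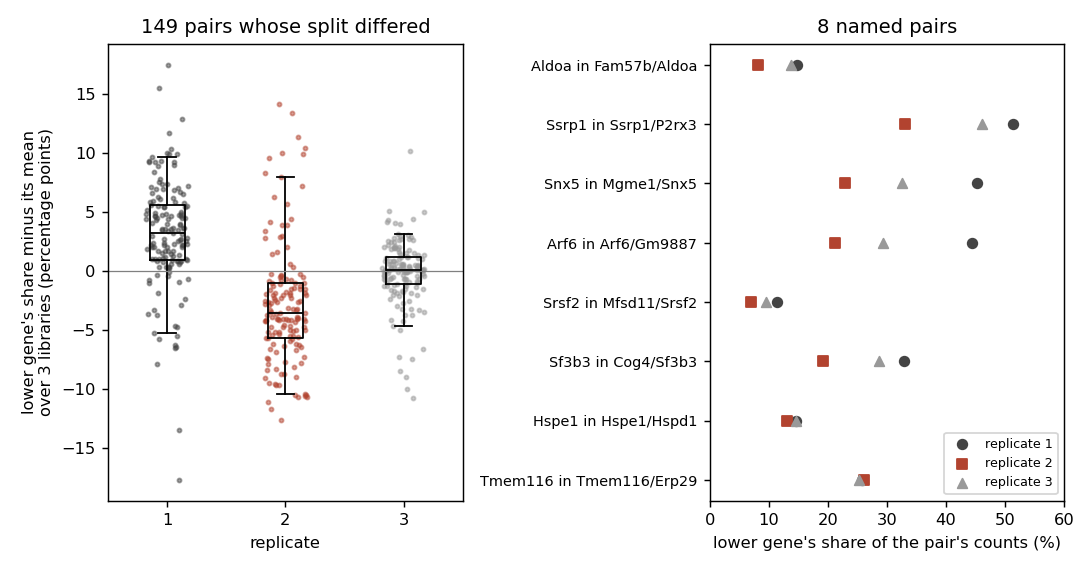
Left, the lower gene's share of its pair's counts minus its mean over 3 libraries (percentage points) in each replicate, for the 149 pairs whose split differed. Boxes give median and quartiles, whiskers the 5th and 95th percentiles, and points are pairs spread sideways at random. Right, that share (%) in each replicate for 8 named pairs. The box of replicate 2 lies below 0, and Ssrp1 spans 33.0% to 51.3% while Tmem116 spans 25.3% to 26.2%.

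Genes of the machinery of mitochondria, ribosomes and the cell cycle were looked up by symbol in 15 lists. Shares below are the mean share of a pair's counts at the listed gene, where the other gene was not on the list and the pair had at least 10 counts summed in every library. They describe these pairs and carry no test. Which gene of a pair is the lower one rests on the strand setting described above, and the split under the opposite setting cannot be computed from counts per gene. How far that setting bears on the TPM levels compared below was not tested.

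Respiratory chain genes were the lower gene in 9 of 11 pairs, with a median share of 21.1%. Ndufb5, a complex I subunit, had 134, 56 and 118 counts opposite Mrpl47 with 3584, 3664 and 3632, and Cox4i1, a subunit of cytochrome c oxidase, had 318, 172 and 254 opposite the membrane insertase gene Emc8 with 3430, 2650 and 2952. Both splits differed between libraries (adjusted p = 4.00e-07 and 3.31e-03, chi-square test with Benjamini-Hochberg adjustment). Atp5f1 of ATP synthase, at 97.0% opposite Wdr77, was an exception. In 3 of the 4 simple pairs the respiratory gene was the lower one. Among these was Atp5j of ATP synthase, with 798, 621 and 763 counts opposite 1233, 1366 and 1470 at Gabpa, which encodes the ETS factor named above. The 11 genes had a median of 51.4 TPM, against 35.9 TPM for 68 listed genes without opposite-strand exon overlap.

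Cytosolic ribosomal protein genes went the other way, as the higher gene in 6 of 7 pairs with a median share of 91.7%. Rps25 had 2917, 2933 and 3311 counts opposite the trafficking gene Trappc4 with 177, 117 and 140. Rpl12 had 2838, 1916 and 2754 opposite the ubiquitin ligase gene Lrsam1 with 22, 10 and 14. The exception was Rpl15, at 9.08% opposite Nkiras1. Their median was 340 TPM, against 261 TPM for 82 listed genes without such overlap.

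Mitochondrial ribosome genes fell on both sides, lower in 6 and higher in 6 of 12 pairs. Mrpl18 was at 4.71% opposite Tcp1, and Mrpl48 at 92.4% opposite the GTPase gene Rab6a. Mitochondrial import genes gave 1 of each: Timm29, with 58, 32 and 49 counts opposite 3362, 3472 and 3459 at Yipf2, and Timm10b at 87.9%. Of the 3 proteasome pairs, Psma4 was at 24.3% opposite AY074887, Psmb9 at 73.0% and Psmd13 at 80.0%. Tap1/Psmb9 joins a peptide transporter of antigen presentation to an immunoproteasome subunit. Tap1 had 183, 85 and 137 counts and Psmb9 had 370, 346 and 349, with a Tap1 share lowest in replicate 2 (adjusted p = 9.21e-05, chi-square test with Benjamini-Hochberg adjustment).

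The names listed under DNA repair and replication were the lower gene in 6 of 6 pairs, with a median share of 27.7%. The list does not hold every such gene: outside it, and looked up after the values were seen, Cdc45 was at 74.7%, the flap endonuclease gene Fen1 at 82.7% opposite Tmem258 and the ribonuclease gene Rnaseh2a at 93.0% opposite Prdx2. Mcm7, a subunit of the replicative helicase, had 831, 495 and 655 counts opposite the adaptor gene Ap4m1 with 1871, 1691 and 1770. Mcm3ap, matched by its name and encoding a nuclear export factor, had 216, 89 and 145 opposite Ybey with 237, 244 and 210. The others included Rad17 at 28.5%, Xrcc4 at 10.6% and Fancf at 41.9%.

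Splicing genes were lower in 3 and higher in 3 of 6 pairs. Srsf2 (9.30%), Snrpa (10.9%) and Sf3b3 (26.9%) were lower, and Sf3a2 (86.9%), Snrpd3 (93.5%) and Hnrnpk (97.7%) higher. Hnrnpk had 1315, 680 and 1143 counts opposite Rmi1 with 23, 19 and 30. Among transcription genes, Med19 and Tmx2 were close to even, with 221, 207 and 235 counts at the Mediator gene and 162, 202 and 200 at the thioredoxin-like gene. Taf1d had 455, 267 and 407 opposite 4931406C07Rik with 414, 339 and 371. The Polr2h share was 51.9%, the Polr2i share 20.4% and the Med21 share 6.54%.

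Cell cycle names were lower in 6 and higher in 4 of 10 pairs, with a median share of 48.0%. One of them, Cdc42se1, encodes a binding partner of a small GTPase and matched by name alone. Kif4, a chromosome-associated kinesin, had 558, 486 and 527 counts opposite Pdzd11 with 588, 608 and 567, near even over 832 shared bases. Cenpo, a centromere gene, had 1093, 1102 and 1086 opposite Ptrhd1 with 29, 30 and 27, a split that was nearly constant (adjusted p = 0.953, chi-square test with Benjamini-Hochberg adjustment). The replication factor Cdc45 was at 74.7% opposite Ufd1, and Cdc25b, a phosphatase that activates cyclin-dependent kinases, at 14.6% opposite Spef1.

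Zinc finger genes (Zfp names) were lower in 8 of 10 pairs, with a median share of 29.4%, and Zfp276 at 95.6% was an exception. Solute carrier names were lower in 6 of 10, with a median of 25.7%. Slc25a46, a mitochondrial outer membrane gene, had 104, 42 and 59 counts opposite B930094E09Rik with 518, 600 and 576, and Slc4a1ap, an adaptor rather than a carrier, had 105, 52 and 104 opposite Supt7l. Coiled-coil names were lower in 4 of 6 pairs and Tmem names in 10 of 17. The 11 solute carrier genes had a median of 8.41 TPM, against 0.156 TPM for 299 listed genes without opposite-strand exon overlap, and the 7 coiled-coil genes 20.6 against 0.444 TPM.

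Among tRNA ligases, Hars2/Hars holds both histidyl-tRNA synthetase genes, for mitochondria and for the cytosol. Hars2 had 1130, 1097 and 1125 counts (142 TPM ± 4.03) and Hars had 276, 150 and 231 (59.5 TPM ± 15.1). The proteins are close relatives, and how far reads that fit both genes affect these counts was not tested. The mitochondrial gene was higher in every library, and the Hars share of 19.6%, 12.03% and 17.0% was lowest in replicate 2 (adjusted p = 4.56e-06, chi-square test with Benjamini-Hochberg adjustment). Ears2, the mitochondrial glutamyl enzyme, had 120, 127 and 121 counts opposite Ubfd1 with 131, 69 and 106. The helicase genes Dhx30 (223, 132 and 187 counts, opposite the chromatin gene Smarcc1 with 727, 439 and 694) and Dhx57 (78, 59 and 84, opposite Morn2 with 3, 6 and 5) were the only 2 of their list.

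**Figure D5:**
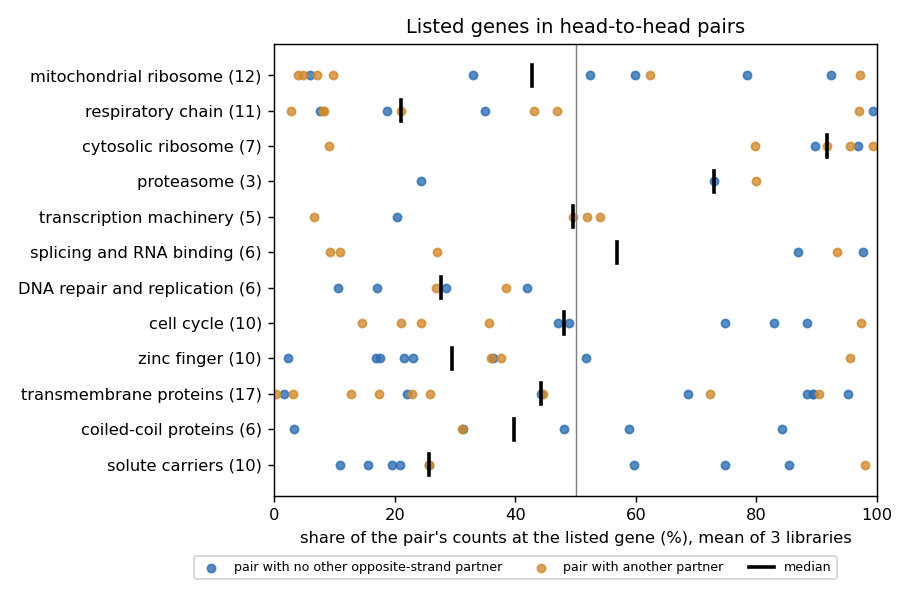
Share (%) of a pair's counts at the listed gene, mean of 3 libraries, for lists with at least 3 pairs (number of pairs in parentheses). Each point is a pair, blue where simple and orange where a further opposite-strand partner exists, the black bar is the list's median, and the grey line marks an even split. The 6 points listed under DNA repair and replication lie left of the line, and 6 of the 7 under cytosolic ribosome lie right of it.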

How the data were processed

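Gene counts of 3 Th1 libraries were analysed. Per the file headers, the authors made raw counts of read pairs per gene with featureCounts 1.4.6-p4 (both ends aligned, strand option 1, exons grouped by gene) on GENCODE release M13, and per the labels on mm10. The sources used here name neither the library kit nor whether that option matched it. Exon lengths and coordinates are those of the deposited files. Symbols and biotypes came from GENCODE M21 by identifier (50376 of 50600 matched).

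Pairs, TPM and shares were computed here. Splits were tested by chi-square (2 degrees of freedom), adjusted over all opposite-strand pairs sharing exon bases. Genes were tested by chi-square against Poisson error at TMM-scaled sizes over genes passing filterByExpr. Log ratios used a prior count of 0.5. No count model with dispersion was used as a main test because the series has 1 group and so no contrast. The biological coefficient of variation (square root of the common dispersion) was 0.18 over 10216 genes. The chi-square tests do not allow for this spread, so their p-values are small where counts are high. Limits of a 0 count and the chi-square tests treat read pairs as independent, although without molecular identifiers several can stem from 1 molecule.

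Named pairs were the 10 with the highest mean summed count, the 4 with the most and the 4 with the fewest shared bases (at least 10 counts summed in every library), the 4 most even and the 4 most uneven (mean summed count of 100 or more), the 6 with the lowest adjusted p, and for each function list the 2 with the highest summed count. Other list genes were named afterwards as examples or exceptions. Some pairs that the rule names are not reported here. The members and lists were chosen with earlier results of these data known. Alternatives changed the overlap minimum, prior count, scaling, filter, test and libraries. Calculations ran in Python 3.11.15 (scipy 1.17.1, pandas 2.3.3, numpy 2.4.6, matplotlib 3.10.9), with scaling factors from edgeR 4.0.16 and DESeq2 1.42.0 under R 4.3.3.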

Additional observations from a re-analysis of the deposited data

How the results depend on the processing

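Keeping simple pairs only left 260 of 454 pairs and 87 of the 149 whose split differed. Leaving out 1 replicate in turn gave from 39 of 352 pairs whose split differed (without replicate 2, 11.1%) to 141 of 344 (without replicate 3, 41.0%). The shares of all opposite-strand pairs were 9.14% and 52.3%. Genes that differed were 108 of 718 without replicate 2 (15.0%, against 9.04% of all genes tested). They were 249 of 708 without replicate 1 (35.2%, against 24.4%) and 331 of 709 without replicate 3 (46.7%, against 37.0%). With all libraries they were 326 of 706 (46.2%, against 35.6%). With protein-coding genes as the denominator, head-to-head genes held 14.5% of counts in place of 9.98%. The median log2 difference per kb from tail-to-tail genes, -0.39, was -0.19 over genes with 10 or more counts in at least 1 library and -0.51 over genes in 1 class only, and the cause was not tested. The other alternatives run kept their values within the limits set: 335 to 429 pairs at longer overlap minimums, 322 to 373 pairs with both genes detected, a median log2 ratio of 2.10 to 2.37, 149 to 151 pairs by the Monte Carlo exact test, a higher expected count or adjustment over protein-coding pairs, and 308 to 338 genes under other scalings or no filter. The 110 pairs that could not be tested had an expected count under 5 in at least 1 cell.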
